A study of Homo sapiens with 36 samples.

Results

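The 10 genes described here carry the NRF2 axis of the cell's defence against electrophiles and oxidants in 2 human cell lines. They were chosen by symbol: NFE2L2 and KEAP1 as the regulators, and NQO1, HMOX1, SRXN1, TXNRD1, OSGIN1, PRDX1, FTL and FTH1 as genes that NRF2 is known to drive. All 10 were found in the count table, each under a single identifier, among 60675 genes. SW1783, an astrocytoma line, and HT29, a colorectal adenocarcinoma line, were each exposed for 24 h to a water extract of Aconitum carmichaeli Debeaux (ACD) at 500, 100 or 20 µg/mL (the high, medium and low doses, all in batch B) or to 10 µM wortmannin, an inhibitor of PI3K (batch A). The labels name the extract as a water extract of Aconiti Lateralis Radix Preparata. Each batch of each line had its own vehicle, so that 12 groups of 3 libraries gave 36 libraries. The labels give the vehicle as 0.1% DMSO. The methods describe phosphate-buffered saline with 2% DMSO as the vehicle and the solvent of the extract. A small volume of extract in this solvent was added to the medium of each well, so the figures need not conflict. SW1783 was grown in Leibovitz's L-15 medium without added CO2 and HT29 in DMEM with CO2, so line and culture cannot be told apart. Separate cultures for the replicates are not stated, and the p-values below measure the spread between libraries only.

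In resting cells the protein KEAP1 holds the transcription factor NRF2, the product of NFE2L2, and hands it to a ubiquitin ligase for breakdown. Electrophiles and oxidants modify cysteines of KEAP1, NRF2 then gathers in the nucleus, pairs with small MAF proteins and binds antioxidant response elements, whose core reads TGACNNNGC. Its targets reduce quinones, break down heme, recharge thioredoxin and peroxiredoxins and store iron. NRF2 is regulated chiefly by protein breakdown, which messenger RNA counts do not show.

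Libraries held 15941276 to 33866683 counts, with a median of 22304016.5 in SW1783 and 22849840.5 in HT29. The defining astrocyte markers were nearly absent from SW1783 (median GFAP 0.0879, S100B 0.0828 and AQP4 0 CPM, counts scaled to a common library total), whereas SLC1A3 (32.1 CPM), NES (8.23), COL1A2 (2022) and VIM (4534) were present, all higher than in HT29. HT29 held its epithelial markers, with a median of 534 CPM for EPCAM. Mitochondrial ribosomal RNA took 0.932% ± 0.0251 of all counts in SW1783 vehicle (SD, n = 3) and 3.14% ± 0.164, 7.83% ± 0.199 and 5.93% ± 0.15 at the low, medium and high doses. In HT29 the same share was 1.18% ± 0.0398 in vehicle and 1.09% ± 0.09, 2.1% ± 0.122 and 12% ± 0.634 at the 3 doses. The part of this shift in the results on the 10 genes was not tested. Replicate 2 of the high dose in HT29 stood apart, with a chi-square per degree of freedom of 64.3 and 65.1 against the other 2 libraries of its group, which gave 9.33 against each other. Many of the values that rest on HT29 at the high dose, though not all, are given without it as well. That library also entered the tests at the other doses of HT29 and the line differences there, because groups fitted together share an estimate of spread. Values at the medium and low doses of HT29 are not listed without it.

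The stretches of the RefSeq promoter windows (GRCh38.p14, from 250 bases before to 50 bases after the transcription start) that carry the antioxidant response core show what a reader would look for upstream of these genes. Windows were found for 7 of the 10 genes, NFE2L2, KEAP1, NQO1, SRXN1, TXNRD1, OSGIN1 and FTL, some with 2 start sites. The cores TGACNNNGC and TGAGNNNGC were searched on both strands of the whole window, and only stretches within the 250 bases before the start are printed. A TXNRD1 match at -8 crosses the start, so it is counted but not printed. Of 10 windows, 6 held a core, belonging to 5 genes. Among 35116 windows of all genes, 13.35% held TGACNNNGC, 18.29% held TGAGNNNGC and 29.13% held either. The OSGIN1 match and 2 of the TXNRD1 matches are shown because both genes were called in both lines, the NQO1 match because its rise was called in both lines at the high dose, and 1 KEAP1 match because KEAP1 was called in no treatment. Capitals mark 1 core in each stretch, and where it lies on the opposite strand they mark its reverse complement. The marked TXNRD1 and KEAP1 cores are TGACNNNGC, and those of OSGIN1 and NQO1 are TGAGNNNGC, which differs from the core described above. KEAP1 had 3 matches in all, TXNRD1 4 and NFE2L2 2, and the KEAP1 stretch shown holds another of its matches, on the opposite strand, left in lower case.
OSGIN1: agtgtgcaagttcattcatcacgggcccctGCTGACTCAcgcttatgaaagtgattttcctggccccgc
TXNRD1 upstream start: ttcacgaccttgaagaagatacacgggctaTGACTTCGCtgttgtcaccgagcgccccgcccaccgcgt
TXNRD1 downstream start: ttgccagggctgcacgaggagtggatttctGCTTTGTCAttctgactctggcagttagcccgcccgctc
NQO1: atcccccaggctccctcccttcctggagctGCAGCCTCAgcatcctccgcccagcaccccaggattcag
KEAP1: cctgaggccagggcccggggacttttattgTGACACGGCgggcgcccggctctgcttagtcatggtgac

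The OSGIN1 stretch lies at chr16:83953111-83953179 on the plus strand, and its core, on the opposite strand, overlaps the AP-1 motif TGANTCA, which 7.709% of all windows held. The TXNRD1 stretches lie at chr12:104215650-104215718 and chr12:104286900-104286968, both on the plus strand. The NQO1 stretch lies at chr16:69726641-69726709 on the minus strand, with its core on the opposite strand, and the KEAP1 stretch at chr19:10502787-10502855 on the minus strand. The SRXN1 and FTL windows held none of these letters in the searched bases. A match is a string of letters, with no binding measured in these samples.

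Levels before treatment were compared first, on normalized counts (expected counts divided by the size factor of the library) per kilobase of exon, which allows genes of different length to be set side by side. In both lines the ferritin chains led. FTL, the light chain of the iron store ferritin, stood at 26055 ± 1130 per kilobase in SW1783 vehicle of batch B and at 65769 ± 6811 in HT29 (SD, n = 3). FTH1, the heavy chain that oxidizes iron, followed with 11370 ± 1503 and 47243 ± 4059. PRDX1, a peroxiredoxin that reduces peroxides, NQO1, which reduces quinones, TXNRD1, which recharges thioredoxin, and SRXN1, which repairs overoxidized peroxiredoxins, came next in this order in both lines. In SW1783 they were followed by HMOX1, the enzyme that splits heme, with 559 ± 11 per kilobase, then KEAP1, NFE2L2 and OSGIN1. In HT29 the order was KEAP1, NFE2L2, HMOX1 at 88.1 ± 7 and OSGIN1, a stress-induced inhibitor of growth, at 49.3 ± 4.29. No neighbours in either order had overlapping ranges. With the longest transcript as the length in place of all exons, FTH1 stood over FTL and NFE2L2 over KEAP1 in HT29, and TXNRD1 over NQO1 in SW1783.

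**Figure D1:**
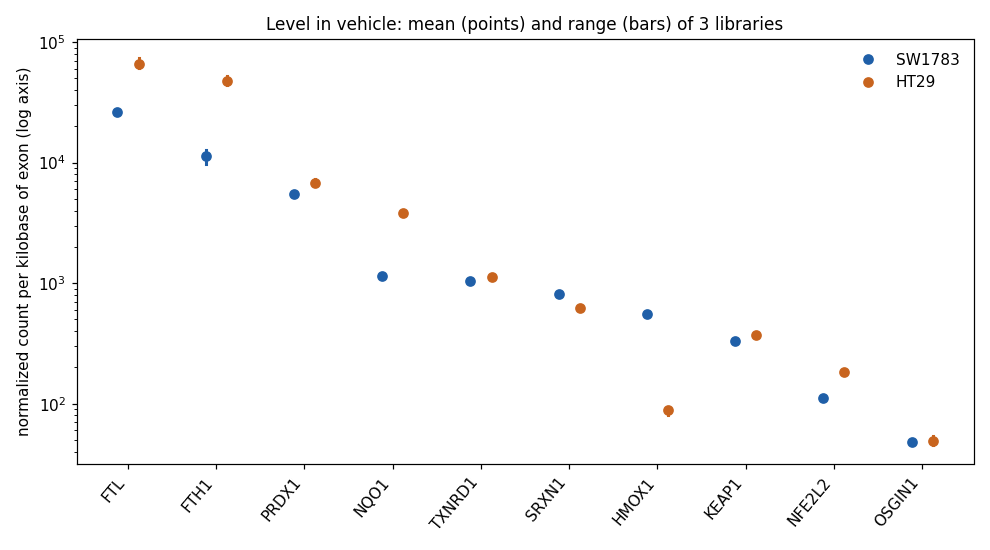
Level of each gene in the vehicle libraries of batch B, in normalized counts per kilobase of exon on a log axis, for SW1783 (blue) and HT29 (orange); points are means and bars the range of 3 libraries. The ferritin genes sit at the top in both lines, and HMOX1 is the gene that is higher in SW1783 by the widest margin.

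The lines differed in the vehicle levels of 5 of the 10 genes, by DESeq2's Wald test with Benjamini-Hochberg adjustment over all genes, where a call asked for an adjusted p under 0.05 and a change of more than 1.5-fold. Counts are relative to all RNA of a library, and RNA per cell and the number of cells cannot be told apart in them. Of all genes tested, 52.2% were called between the lines in vehicle, so this share is near the background. HMOX1 stood at 1290, 1263 and 1314 normalized counts in SW1783 and at 215, 185 and 209 in HT29, a difference of 2.68 on the log2 scale (SE 0.0841, adjusted p = 9.67e-221). FTH1 went the other way, with 19617, 23130 and 25609 in SW1783 and 103842, 91869 and 88316 in HT29 (log2 difference -2.06, SE 0.0758, adjusted p = 6.9e-161). NQO1 (-1.72), FTL (-1.34) and NFE2L2 (-0.71) were also lower in SW1783. SRXN1 (0.37), PRDX1 (-0.31) and TXNRD1 (-0.10) passed the adjusted p alone, and KEAP1 (-0.15, adjusted p = 0.144) and OSGIN1 (-0.05, adjusted p = 0.722) did not.

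At the high dose, 7 of the 10 genes rose in SW1783 and 3 of 10 in HT29, and none fell in either line by the call. HMOX1 rose the furthest in both, 10.5-fold in SW1783 and 2.13-fold in HT29. FTH1, OSGIN1 and FTL followed in SW1783, while in HT29 the other 2 calls were NQO1 and TXNRD1. Among all genes tested, 18.2% were called in SW1783 at this dose, 8.63% as rises, and 2.91% in HT29, 1.29% as rises. The median log2 fold change of the 10 genes was 0.80 in SW1783 and 0.49 in HT29, against -0.01 and 0.01 over all genes tested. Together the 10 genes took 0.323% ± 0.0126 of all counts in SW1783 vehicle and 0.857% ± 0.0244 at the high dose, and 0.86% ± 0.0515 and 1.11% ± 0.0428 in HT29. FTL and FTH1 made up 63.5% ± 1.54 of these counts in SW1783 vehicle and 77.6% ± 0.451 at the high dose, and 80.7% ± 0.877 and 79.9% ± 2.38 in HT29. The other 8 genes took 0.118% ± 0.000973 and 0.192% ± 0.00158 of all counts in SW1783, and 0.166% ± 0.00308 and 0.224% ± 0.0342 in HT29. Without replicate 2 of HT29 the calls there were 4 (OSGIN1 added), the median 0.48 and the share of all 10 genes 1.09%, with 4.1% of all genes called.

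**Figure D2:**
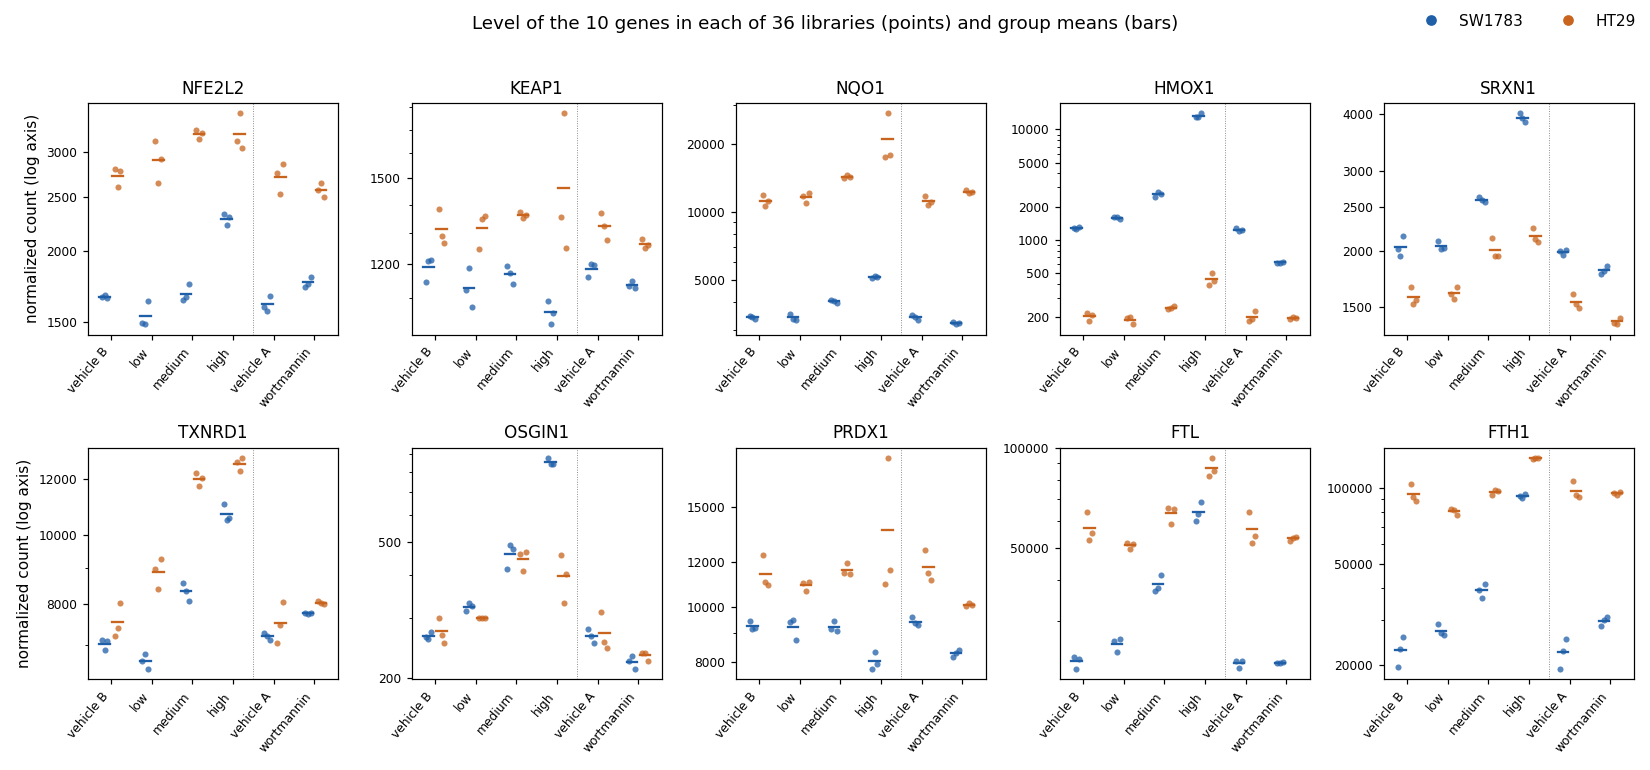
Normalized counts of each gene in all 36 libraries, on log axes that differ between panels; blue points are SW1783, orange points HT29, horizontal bars are means of 3 libraries, and the dotted line separates batch B (vehicle and 3 doses) from batch A (vehicle and wortmannin). HMOX1 in SW1783 climbs from a mean of 1289 in vehicle to 13289 at the high dose, and 1 HT29 library at the high dose lies far above the other 2 for NQO1 and PRDX1.

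The regulators moved little. NFE2L2 read 1662, 1674 and 1655 normalized counts in SW1783 vehicle and 2331, 2226 and 2300 at the high dose, with no overlap. This log2 fold change of 0.48 (SE 0.0486, adjusted p = 4.46e-22) stayed under the 1.5-fold threshold. In HT29 the gene read 2795, 2600 and 2770 in vehicle and 3141, 3510 and 3044 at the high dose, a log2 fold change of 0.23 that missed the test (SE 0.0843, adjusted p = 0.0671) and was 0.16 without replicate 2 (adjusted p = 0.0944). KEAP1 was slightly lower in SW1783 at the high dose, at 1092, 1028 and 1058 against 1145, 1210 and 1214 (log2 fold change -0.14, SE 0.0592, adjusted p = 0.0326). In HT29 the high-dose libraries of KEAP1, at 1354, 1773 and 1252, overlapped those of vehicle, and without replicate 2 its log2 fold change went from 0.13 to -0.04. Neither gene was called at any dose or with wortmannin in either line.

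The quinone reductase NQO1 passed the call in both lines. In SW1783 it read 3447, 3435 and 3355 in vehicle and 5116, 5185 and 5177 at the high dose (log2 fold change 0.62, SE 0.0338, adjusted p = 6.96e-74). HT29 started higher, at 11911, 10643 and 11154, and reached 17611, 27464 and 17960 (log2 fold change 0.89, SE 0.153, adjusted p = 5.02e-07). Replicate 2 lay well over the other 2 libraries, and without it the change was 0.64 (SE 0.0586, adjusted p = 2.17e-25), still a call. The 2 lines' responses did not pass the test of their difference (log2 difference -0.31, 95% confidence interval -0.62 to -0.00, adjusted p = 0.134).

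HMOX1, the heme oxygenase, gave the widest spread of the 10 genes. In SW1783 the 4 groups of batch B were fully ordered by dose: 1263 to 1314 normalized counts in vehicle, 1545 to 1618 at the low, 2436 to 2708 at the medium and 12896 to 14045 at the high dose. The log2 fold changes were 0.31 (SE 0.0502, adjusted p = 2.71e-07), 1.02 (SE 0.0483, adjusted p = 2.01e-95) and 3.39 (SE 0.0458), the last with an adjusted p below the smallest number the software stores. The low-dose change stayed under 1.5-fold. In HT29 vehicle and low-dose libraries overlapped (185 to 215 and 173 to 198), the medium dose lay at 236 to 252 and the high dose at 393, 501 and 420. Only the high dose passed the test in HT29 (log2 fold change 1.09, SE 0.127, adjusted p = 1.56e-15), and it did so without replicate 2 as well (0.99, adjusted p = 6.45e-13). Even at the high dose, HT29 held fewer normalized HMOX1 counts than SW1783 vehicle.

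The genes of the thioredoxin and peroxiredoxin cycle divided. SRXN1 rose 1.96-fold in SW1783, from 2021, 1947 and 2151 to 4025, 3929 and 3853 (log2 fold change 0.97, SE 0.042, adjusted p = 5.11e-117). In HT29 it went from 1658, 1522 and 1556 to 2244, 2121 and 2093, which passed the adjusted p but not the 1.5-fold threshold (0.43, SE 0.0638, adjusted p = 1.34e-09), and 0.44 without replicate 2. TXNRD1 rose in both lines, by 0.63 in SW1783 (SE 0.0307, adjusted p = 1.44e-92) and by 0.73 in HT29 (SE 0.057, adjusted p = 1.98e-34), or 0.74 without replicate 2. Its libraries went from 7124, 6879 and 7093 to 11059, 10511 and 10564 in SW1783 and from 7201, 7390 and 8019 to 12685, 12306 and 12840 in HT29. PRDX1 did not rise with them. In SW1783 it was lower by a small amount, at 7764, 8332 and 7931 against 9450, 9133 and 9182 (log2 fold change -0.18, SE 0.0343, adjusted p = 4.54e-07). In HT29 its value of 0.24 rested on replicate 2, which read 18341 beside 10991 and 11631, and became -0.04 without it (adjusted p = 0.704).

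OSGIN1 rose at the medium and high doses in SW1783 and at the medium dose in HT29. It read 263, 260 and 273 in SW1783 vehicle, 416, 489 and 476 at the medium and 877, 841 and 843 at the high dose. These are log2 fold changes of 0.81 (SE 0.0948, adjusted p = 6.38e-16) and 1.71 (SE 0.0906, adjusted p = 4.41e-78). In HT29 the medium dose, at 460, 411 and 468 against 300.1, 268 and 254 in vehicle, was called (0.69, SE 0.121, adjusted p = 3.75e-06). The HT29 high dose, at 459, 332 and 402, overlapped the medium dose and was not called (0.54, SE 0.123, adjusted p = 0.00055), and high against medium gave -0.15 (adjusted p = 0.691). Without replicate 2, which was the lowest of the 3, the high-dose value was 0.63 and passed the call (adjusted p = 2.72e-06), as it did at 0.60 without vehicle replicate 1. The overlapping gene MLYCD lies on the same strand as OSGIN1, so part of these reads could be shared.

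The ferritin chains rose at both the medium and the high dose in SW1783. FTL went from 23358, 21563 and 23161 in vehicle to 37098, 37754 and 41381 at the medium and 60152, 62966 and 68780 at the high dose. FTH1 went from 19617, 23130 and 25609 to 39581, 36701 and 41464 and then to 92869, 91280 and 94172. No library of one dose overlapped those of the next for either chain. At the high dose the log2 fold change was 1.52 for FTL (SE 0.0656, adjusted p = 7.62e-117) and 2.05 for FTH1 (SE 0.0915, adjusted p = 2.52e-109). At the medium dose they were 0.78 (adjusted p = 2e-30) and 0.79 (adjusted p = 2.47e-16). In HT29 neither chain was called at any dose. FTL at the high dose, at 81905, 93047 and 85094 against 63966, 52636 and 55251, was 1.499-fold higher and fell just short of the threshold (log2 fold change 0.58, SE 0.0891, adjusted p = 6.61e-09), and without replicate 2 the value was 0.52. It passed the call when only these 2 groups were fitted (0.59) or when the vehicle of batch A was the reference (0.60). FTH1 in HT29 stood at 130203, 131123 and 130618 (0.45, SE 0.0668, adjusted p = 1.97e-09), or 0.44 without replicate 2. Reads that could belong to processed copies were few: 25 copies of FTH1 held 0.16% to 0.484% of the counts of parent and copies, 16 copies of FTL 0.0276% to 0.133%, and the 1 copy of PRDX1 at most 0.0178%.

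Dose set how many of the 10 genes moved. At the medium dose the calls were HMOX1, OSGIN1, FTL and FTH1 in SW1783 (3.82% of all genes called, 2.34% as rises) and TXNRD1 and OSGIN1 in HT29 (0.849% called, 0.44% as rises). NQO1 (0.25), SRXN1 (0.35) and TXNRD1 (0.25) passed the adjusted p alone in SW1783 at this dose, as did SRXN1 (0.33) in HT29. NQO1 in HT29 did not pass (0.34, SE 0.153, adjusted p = 0.341), although its medium-dose libraries all lay above vehicle. Replicate 2 of the HT29 high dose enters this SE, as the groups share an estimate of spread. At the low dose DESeq2 called none of the 10 in either line, where 0.118% of all genes were called in SW1783 and 0.321% in HT29; 6 and 3 of them had an unadjusted p under 0.05, and edgeR's quasi-likelihood test also called 0. HMOX1 in SW1783 was past the adjusted p alone at the low dose, and in HT29 so were TXNRD1 (0.21, SE 0.0571, adjusted p = 0.0388) and FTH1, which was lower than vehicle (-0.25, SE 0.0668, adjusted p = 0.0301). The doses of a line share their vehicle libraries, so these values are not independent of each other.

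The step from the medium to the high dose was tested directly. In SW1783 it was called for 5 genes, HMOX1 (log2 fold change 2.38), FTH1 (1.26), OSGIN1 (0.90), FTL (0.74) and SRXN1 (0.62), in a comparison where 10.2% of all genes were called. In HT29 it was called for HMOX1 alone (0.84, SE 0.124, adjusted p = 5.82e-09), where 0.699% of all genes were called. NQO1 (0.55), FTL (0.45) and FTH1 (0.44) passed the adjusted p alone in HT29. Without replicate 2 HMOX1 stood at 0.73 and was still called, and FTL and FTH1 stood at 0.39 and 0.43. NQO1 was called without high-dose replicate 1 (0.67) or replicate 3 (0.66), and stood at 0.30 without replicate 2. TXNRD1 and SRXN1 did not pass in HT29, with intervals of the log2 difference from -0.04 to 0.19 and from -0.02 to 0.23.

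**Figure D3:**
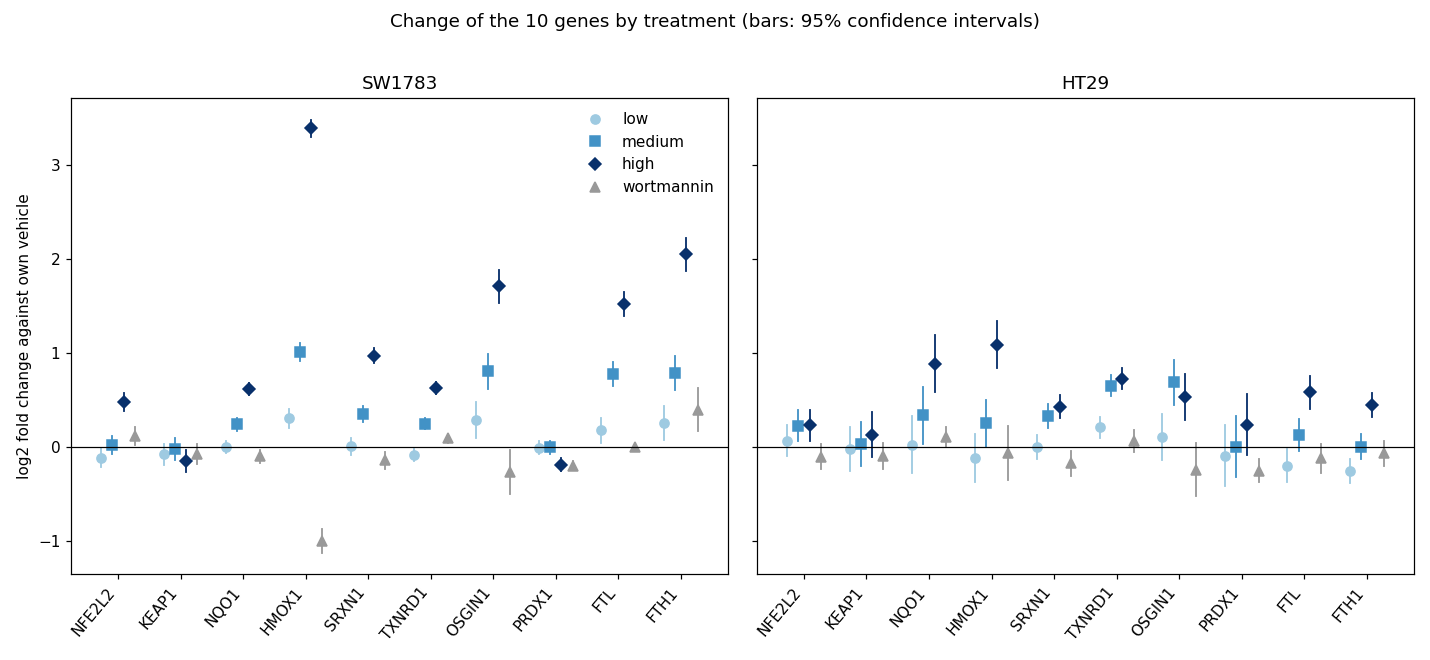
Log2 fold change of each gene against the vehicle of its own batch at the low, medium and high doses of ACD and with wortmannin, in SW1783 (left) and HT29 (right); vertical bars are 95% confidence intervals from DESeq2. HMOX1 in SW1783 reaches 3.39 at the high dose and -0.99 with wortmannin, and PRDX1 and KEAP1 stay near 0 in both lines.

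Wortmannin, the reference PI3K inhibitor, lowered HMOX1 in SW1783 and moved no other of the 10 genes past the call. HMOX1 read 1271, 1206 and 1234 in the vehicle of batch A and 620, 623 and 633 with wortmannin, without overlap (log2 fold change -0.99, SE 0.0637, adjusted p = 1.42e-52). Of all genes, 2.71% were called with wortmannin in SW1783. FTH1 went the other way, from 19228, 22710 and 25196 to 28422, 29909 and 30882, under the 1.5-fold threshold (0.40, SE 0.118, adjusted p = 0.00326). PRDX1 (-0.20), SRXN1 (-0.14), NQO1 (-0.10), NFE2L2 (0.12) and TXNRD1 (0.10) passed the adjusted p alone. In HT29 none of the 10 was called by DESeq2 or edgeR, in a comparison with 2.74% of all genes called and 3 of the 10 at an unadjusted p under 0.05, and PRDX1 (-0.25, SE 0.062, adjusted p = 0.000947) was the 1 gene past the adjusted p. HMOX1 in HT29 stayed at 191, 201 and 197 against 186, 194 and 225.

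The difference between the lines' responses was then tested itself, as the change in SW1783 minus the change in HT29. At the high dose it was called for HMOX1 (log2 difference 2.26, SE 0.11, adjusted p = 3.96e-91), FTH1 (1.56, SE 0.107, adjusted p = 1.03e-45), OSGIN1 (1.13, SE 0.136, adjusted p = 4.36e-15) and FTL (0.90, SE 0.106, adjusted p = 9.46e-16). All 4 rose further in SW1783, and 15.1% of all genes were called in this test. Without replicate 2 of HT29 these 4 differences were 2.34, 1.56, 1.03 and 0.95 and remained called. SRXN1 (0.50), PRDX1 (-0.47) and KEAP1 (-0.31) passed the adjusted p alone, and the PRDX1 and KEAP1 values were -0.19 and -0.16 without that library. NFE2L2 and TXNRD1 missed the test (adjusted p = 0.0613 and 0.067), with 95% intervals of 0.04 to 0.38 and -0.26 to -0.02, and both passed the adjusted p without replicate 2 of HT29, at 0.27 (adjusted p = 0.00336) and -0.15 (adjusted p = 0.0338).

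At the medium dose the lines differed in HMOX1 (0.73), FTH1 (0.76) and FTL (0.62), with 3.33% of all genes called, and TXNRD1 went the other way under the threshold (-0.43, SE 0.0598, adjusted p = 1.49e-10). FTL lost its call without HT29 vehicle replicate 1 (0.54), HT29 medium replicate 2 (0.57) or SW1783 medium replicate 3 (0.57). OSGIN1 and SRXN1 missed the test at this dose, with intervals from -0.18 to 0.36 and from -0.14 to 0.13. At the low dose DESeq2 and edgeR called none of the 10 (0.266% of all genes by DESeq2; 5 of the 10 at an unadjusted p under 0.05), and TXNRD1 (-0.31, adjusted p = 0.000135) and FTH1 (0.48, adjusted p = 0.00236) passed the adjusted p alone. TXNRD1 was the 1 gene of the 10 that passed the adjusted p with the larger response in HT29 at both of these doses. With wortmannin, HMOX1 was called (-0.95, SE 0.12, adjusted p = 2.39e-13) where 3.36% of all genes were, and FTH1 (0.44) and NQO1 (-0.23) passed the adjusted p alone.

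**Figure D4:**
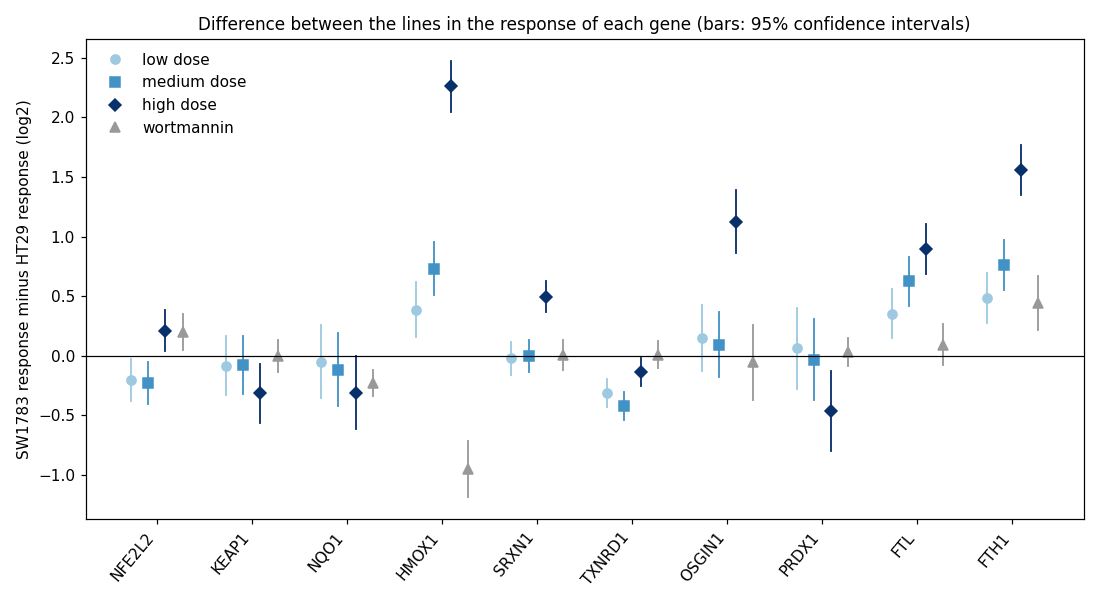
Response in SW1783 minus response in HT29 for each gene on the log2 scale, at the 3 doses and with wortmannin; vertical bars are 95% confidence intervals from DESeq2 and values over 0 are larger in SW1783. HMOX1, FTH1, FTL and OSGIN1 stand highest at the high dose, and TXNRD1 lies under 0 at the low and medium doses.

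The other genes of the pathway, in lists that leave out the 10 genes, were counted in the same fits. Shares of all genes called there at the high dose were 18.2% in SW1783 (8.63% as rises) and 2.91% in HT29 (1.29% as rises). At the medium dose they were 3.82% and 0.849%, at the low dose 0.118% and 0.321%, and with wortmannin 2.71% and 2.74%. Of the 14 NRF2 partners and regulators, 5 rose at the high dose in SW1783 and 0 fell, against 0 of 14 in HT29 by DESeq2, where 4 had an unadjusted p under 0.05. Those 5 were NFE2L1, MAFF, MAFG, BACH1 and SQSTM1, of which only MAFF was named by rule. MAFF, a small MAF partner of NRF2, went from 366 ± 12.3 to 1487 ± 30.7 normalized counts (SD, n = 3; log2 fold change 2.05, SE 0.0812, adjusted p = 2.62e-138). BACH1, the repressor that competes with NRF2 at the HMOX1 gene, rose by 1.22 (SE 0.0606, adjusted p = 3.53e-88), and SQSTM1, which draws KEAP1 into autophagy, by 1.96 (SE 0.0307). Their values in HT29 were 0.17 (adjusted p = 0.433) and 0.36 (adjusted p = 3.22e-09), both under the threshold, and without replicate 2 they were 0.24 and 0.35, with 0 of 14 called. At the medium dose MAFF and SQSTM1 rose in SW1783 and no gene of the list in HT29, and with wortmannin DESeq2 called none in either line (8 of 14 in SW1783 and 6 of 14 in HT29 at an unadjusted p under 0.05). For the whole list the high-dose median came to 0.21 (log2) in SW1783, against 0.09 in HT29.

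Of the other known NRF2 targets, 10 of 21 tested were called at the high dose in HT29, where 2.91% of all genes were. In SW1783 it was 6 of 21, where 18.2% of all genes were called. The difference between these counts was not tested. All 10 rose in HT29, led by AKR1C2, an aldo-keto reductase, from 224 ± 17.6 to 607 ± 200 normalized counts (log2 fold change 1.42, SE 0.203, adjusted p = 3.49e-10). Without replicate 2 the count in HT29 was 12 of 21, all rises, where 4.1% of all genes were called. AKR1C2 then stood at 1.12 (adjusted p = 4.61e-17). In SW1783, 4 rose (GCLC, SLC7A11, AKR1C1 and ABHD4) and 2 fell (AKR1B10 and AKR1C3). GCLC, the catalytic subunit of the first enzyme of glutathione synthesis, led with 716 ± 12.9 to 2775 ± 63.8 (1.98, SE 0.0589, adjusted p = 1.74e-245), and AKR1C3 fell by 0.59 on the log2 scale (SE 0.126, adjusted p = 9.8e-06). AKR1C3 went the other way in HT29, where its log2 fold change was 1.04 (SE 0.175, adjusted p = 2.66e-07), or 0.82 without replicate 2. The aldo-keto reductases of this family are close in sequence, and reads could be split among them. At the medium dose 3 targets rose in HT29 (0.849% of all genes called), and 2 rose and 1 fell in SW1783 (3.82%). With wortmannin, AKR1C1, AKR1C2 and ABCC2 rose in HT29 (2.74% of all genes called) and TRIM16L fell in SW1783 (2.71%). The high-dose median over the list was 0.58 (log2) in HT29, against 0.18 in SW1783.

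In the thioredoxin and peroxiredoxin list, 1 of 14 genes rose at the high dose in SW1783, and 1 rose and 2 fell in HT29. Of all genes, 18.2% were called at that dose in SW1783 and 2.91% in HT29, so the SW1783 count was not over its share. The gene that rose in both was SESN2, a stress-induced sestrin, from 410 ± 10.4 to 2687 ± 153 in SW1783 (2.74, SE 0.0679) and from 275 ± 23.8 to 599 ± 105 in HT29 (1.12, SE 0.143, adjusted p = 1.29e-12). TXNIP, which binds and inhibits thioredoxin, fell in HT29 from 1257 ± 61.6 to 491 ± 133 (-1.38, SE 0.156, adjusted p = 3.43e-16), as did SESN1 (-0.73). Without replicate 2 of HT29 the same 3 genes were called, SESN2 at 1.24, TXNIP at -1.60 and SESN1 at -0.84. TXNIP was also called as a fall at the medium dose in both lines. From the medium to the high dose it was called as a rise in SW1783 and as a fall in HT29. With wortmannin TXNIP rose in both lines, by 0.77 in SW1783 and 0.75 in HT29. The other peroxiredoxins of the list, PRDX2 to PRDX6, were called in no dose of either line, like PRDX1.

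Heme and iron genes were called in 4 of 15 cases in SW1783 and 1 of 16 in HT29 at the high dose, all as rises. The shares of all genes called were 18.2% and 2.91% in either direction, and 8.63% and 1.29% as rises. ALAS1, the first enzyme of heme synthesis, rose in both, from 1210 ± 31.7 to 2362 ± 22.8 in SW1783 (0.99, SE 0.05, adjusted p = 1.34e-85) and from 1018 ± 62.1 to 1877 ± 127 in HT29 (0.86, SE 0.0736, adjusted p = 4.17e-29), or 0.81 without replicate 2. The other 3 in SW1783 were BLVRB (0.73), SLC11A2 (0.90), which carries iron into the cytosol, and SLC48A1 (0.60). DESeq2 called no gene of the list at the medium or low dose in either line, although 12 of 16 in SW1783 and 5 of 16 in HT29 had an unadjusted p under 0.05 at the medium dose, and 2 and 5 at the low dose, and SLC40A1 rose with wortmannin in HT29.

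The aryl hydrocarbon receptor battery is given because NQO1 is also a target of that receptor. At the high dose 5 of 9 tested genes rose in HT29 (CYP1A1, CYP1B1, TIPARP, UGT1A6 and ALDH3A1) and none fell, while in SW1783 1 rose (AHR) and 3 fell (CYP1A1, CYP1B1 and AHRR). The shares of all genes called were 2.91% in HT29 and 18.2% in SW1783. CYP1A1 in HT29 went from 6.37 ± 3.43 to 2227 ± 112 normalized counts (8.34, SE 0.391, adjusted p = 2.31e-97), and its log2 fold change was already 8.21 at the medium dose and 3.64 at the low dose. CYP1B1 in SW1783 went from 3631 ± 19.1 to 1520 ± 59.9 (-1.23, SE 0.0418, adjusted p = 3.44e-189), against a rise of 2.82 in HT29. Without replicate 2 of HT29 the same 5 genes were called there, CYP1A1 at 8.33 and CYP1B1 at 2.89. At the low dose this was the list with calls, 3 rises in HT29 (CYP1A1, CYP1B1 and TIPARP), while the other 4 lists had 0 in either line by DESeq2, with 1 to 5 genes at an unadjusted p under 0.05 in each. Of all genes, 0.321% were called at the low dose in HT29 and 0.118% in SW1783. In the same fits NQO1 changed by 0.62 in SW1783 and 0.89 in HT29, and the part of the receptor in NQO1 was not tested.

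**Figure D5:**
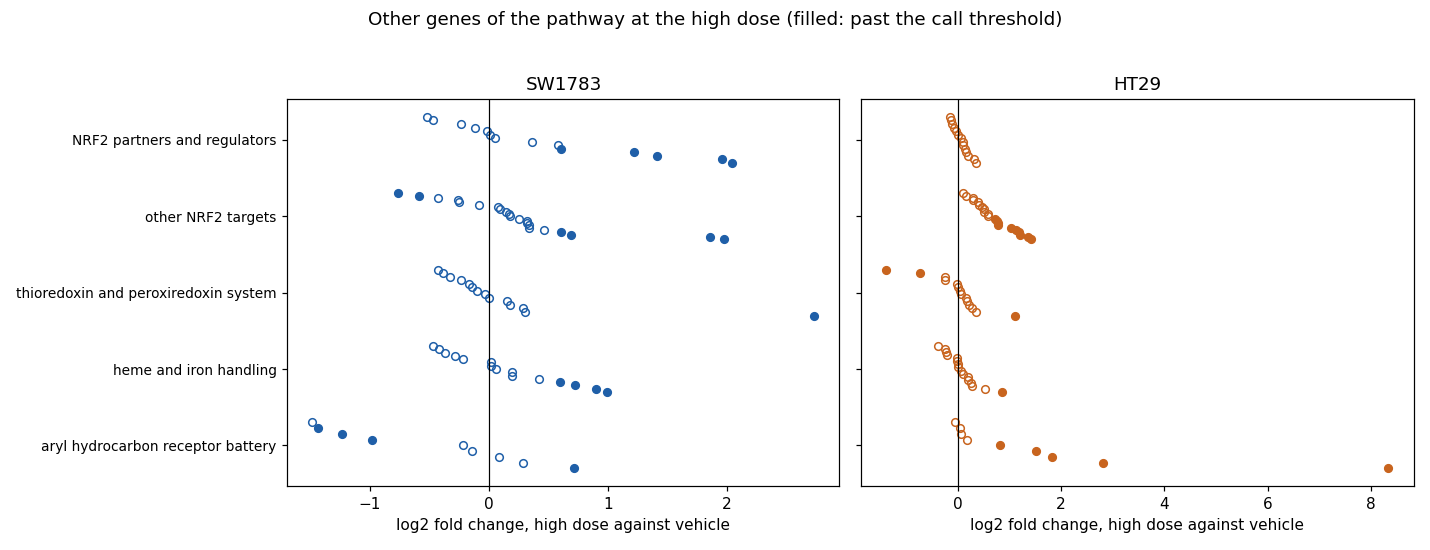
Log2 fold change at the high dose of the genes of 5 other lists, each gene a circle, in SW1783 (left) and HT29 (right); filled circles passed the call (adjusted p under 0.05 and more than 1.5-fold by DESeq2), and the horizontal axes differ. The aryl hydrocarbon receptor genes called lie mostly left of 0 in SW1783 and all right of 0 in HT29.

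The patterns of the 10 genes over 8 log2 fold changes (3 doses and wortmannin in 2 lines) were compared as a description, since the doses share vehicle libraries. SRXN1 and OSGIN1 had a Pearson correlation of 0.975, FTL and FTH1 of 0.955, HMOX1 and SRXN1 of 0.941, and KEAP1 and PRDX1 of 0.879. NQO1 and TXNRD1 were closest to each other, at 0.879. KEAP1 had values of -0.40 with FTH1 and -0.18 with HMOX1. These correlations, and the nearest genes that follow, were computed with every library kept. One of the 8 values therefore includes HT29 replicate 2 at the high dose. Dropping it took that log2 fold change from 0.13 to -0.04 for KEAP1 and from 0.24 to -0.04 for PRDX1. Correlations and nearest genes were not recomputed without this library. Among 9622 genes with a mean of 100 or more normalized counts in both lines, TRIM47 (0.996) was among the most like HMOX1, the most like FTL were ALKBH2 (0.992) and RAB24 (0.988), and the most like FTH1 were EIF1 (0.989) and SELENOS (0.987). For OSGIN1 they were GORASP2 (0.993) and DENND4B (0.985), for SRXN1 U2AF1L4 (0.988) and RIPK2 (0.985), and for PRDX1 SPRYD7 (0.984) and SSBP1 (0.975). The nearest for NQO1 were ZNF473 (0.967) and C12orf29 (0.965), for NFE2L2 RAB23 and SAMD8 (both 0.965), for KEAP1 PDLIM7 (0.965) and INVS (0.964), and for TXNRD1 CACNB1 (0.958) and SERTAD2 (0.956).

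The vehicles of the 2 batches were nearly the same for these genes. None of the 10 was called between them in either line, and their largest difference on the log2 scale was 0.06 in SW1783 and 0.04 in HT29. Over all genes, DESeq2 called 1 of 28759 in SW1783 and 0 of 27605 in HT29. At an unadjusted p under 0.05 there were 255 and 50, far fewer than that threshold would give between independent groups. Vehicles of the same number in the 2 batches had a chi-square per degree of freedom of 1.44 to 1.61, under every pair within a group (1.65 to 65.1) and whether they came from separate cultures is not stated. Because they were closer than replicates, the few calls cannot show whether the batches agree. Each treatment was set against the vehicle of its own batch unless stated.

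On GRCh38 (GENCODE annotation), the genes lie on 8 chromosomes, and several overlap others by the span of the whole gene, introns included. Whether exons overlap was not examined. Where they do, reads could be shared on the same strand, and on the other strand if the counting did not use strand. NFE2L2 (ENSG00000116044, chr2:177218667-177392756) overlaps 5 genes on its own strand and 6 on the other. KEAP1 (ENSG00000079999, chr19:10486125-10503558), SRXN1 (ENSG00000271303, chr20:646615-653200) and OSGIN1 (ENSG00000140961, chr16:83931311-83966332) overlap 1 gene each on their own strand. TXNRD1 (ENSG00000198431, chr12:104215779-104350307) overlaps 2 on its strand and 1 on the other. NQO1 (ENSG00000181019, chr16:69706996-69726668), FTH1 (ENSG00000167996, chr11:61959718-61967634) and PRDX1 (ENSG00000117450, chr1:45510914-45542732) have partners on the opposite strand. HMOX1 (ENSG00000100292, chr22:35380361-35394214) and FTL (ENSG00000087086, chr19:48965309-48966879) complete the set.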

How the data were processed

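RNA of 36 SW1783 and HT29 samples was sequenced as directional mRNA libraries in 100 bp paired reads. Per the labels, the authors used FastQC 0.11.9, Trim Galore 0.6.5, STAR 2.7.3a and RSEM 1.3.3 on GRCh38; the strand setting is not given in the sources used here. The authors deposited RSEM expected counts per Ensembl gene in 1 table, in which 8.84% of values were not whole, and these were rounded here. Symbols and positions came from GENCODE (56558 of 60675 genes).

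DESeq2 1.42.0 (R 4.3.3) was fitted per line and batch (12 libraries in batch B, 6 in batch A) and over both lines for their differences. P-values were two-sided Wald tests, adjusted over all genes; a call, as in the study's methods, needed an adjusted p under 0.05 and more than 1.5-fold. Normalized counts used size factors over all 36 libraries, which moved no difference between groups by more than 0.0277 (log2) against the fitted scale. A count of 3 corresponded to 0.0886 to 0.188 CPM. The scripts were tested on simulated data. Alternatives were edgeR 4.0.16, TMM factors, a filter on low counts, adjusted p alone, a replicate block, added copies, other libraries or vehicle, and leaving out each replicate.

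The 10 genes and the lists were chosen with earlier results of these data known. From each list, the gene with the largest rise and fall called at the high dose, with a mean of 100 or more counts, was named by rule; others named were chosen after their values were seen. One gene with a pattern near that of a member is not reported here.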

Additional observations from a re-analysis of the deposited data

Results flagged for a closer look

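The response of a gene differed between the lines, by the DESeq2 interaction test with Benjamini-Hochberg adjustment over all genes, in 16 of 40 combinations of gene and treatment. At the high, medium and low doses and with wortmannin, 28.8%, 10.4%, 0.927% and 14.8% of all genes passed the same adjusted p. Values are changes in SW1783 minus changes in HT29 on the log2 scale. At the high dose they were HMOX1 2.26, FTH1 1.56, OSGIN1 1.13, FTL 0.90, SRXN1 0.50, PRDX1 -0.47 (adjusted p = 0.0272) and KEAP1 -0.31 (adjusted p = 0.0459). At the medium dose they were FTH1 0.76, HMOX1 0.73, FTL 0.62 and TXNRD1 -0.43. The low dose gave FTH1 0.48 and TXNRD1 -0.31, and wortmannin gave HMOX1 -0.95, FTH1 0.44 and NQO1 -0.23. Of these, 8 were also past 1.5-fold. Leaving out replicate 2 of the high dose in HT29 took KEAP1 to -0.16 (adjusted p = 0.122) and PRDX1 to -0.19 (adjusted p = 0.0121), and brought NFE2L2 (0.27, adjusted p = 0.00336) and TXNRD1 (-0.15, adjusted p = 0.0338) past the adjusted p.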

How the results depend on the processing

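No called value changed sign under any alternative. Of 483 values recomputed for the 36 calls with the 1.5-fold rule in place, 480 remained calls, and the 3 lost were FTL in the line difference at the medium dose (0.54 without HT29 vehicle replicate 1, 0.57 without HT29 medium replicate 2, 0.57 without SW1783 medium replicate 3). Signs changed in 75 of 2200 values, none of them called, and none of the recomputed values was over 0.0722 in size on the log2 scale. The values before recomputing could be larger. PRDX1 at the high dose in HT29 went from 0.24 to -0.04 without replicate 2. Dropping the fold threshold raised every count of genes, beside the share of all genes that passed the adjusted p alone: in SW1783 to 10 at the high dose (46.4%), 7 at the medium (29.5%), 1 at the low (3.28%), 7 with wortmannin (32.5%) and 9 for high against medium (40.8%); in HT29 to 7 (7.61%), 3 (2.18%), 2 (0.648%), 1 (19.7%) and 4 (1.7%) in the same order; and for line differences to 7 at the high dose, 4 at the medium, 2 at the low, 3 with wortmannin and 8 in vehicle (64%). Leaving out 1 replicate gave 3 to 5 calls at the high dose in HT29, with FTL (0.60 to 0.67) or OSGIN1 (0.60 and 0.63) added; the 5 came without vehicle replicate 1. For HT29 high against medium the same gave 1 to 2 calls, where NQO1 joined without high replicate 1 or 3. Replicate numbers did not pair the samples in a uniform way. Deviations from group means had same-numbered correlations of -0.483 to 0.358. In SW1783 batch B, 5 of 18 same-numbered pairs were over 0.1, against 0 of 36 other pairs. The counts were 5 of 18 and 14 of 36 in HT29 batch B. In batch A they were 2 of 3 and 1 of 6 in HT29, and 0 of 3 and 0 of 6 in SW1783. With the replicate block all 36 calls were kept, and 1 of 150 combinations of gene and comparison changed. It was FTL at the high dose in HT29, which became a call at 0.588. This was close to the 0.587 with only the 2 groups compared and the 0.60 with the other batch's vehicle. PRDX1 in the line difference at the high dose was called without HT29 high replicate 1 (-0.60).

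Each group had 3 libraries, and intervals were wide for some genes. PRDX1 at the high dose in HT29 had a 95% interval of -0.08 to 0.57 on the log2 scale. Its SE was 0.166 with all libraries and 0.060 without replicate 2. The counts for the other lists without replicate 2 of HT29 were added after seeing the data. Counts do not show NRF2 protein or its place in the cell.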
